A study of Mus musculus with 6 samples.

Results

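A set of 37 genes, of 34745 listed, was counted in every KO library and almost absent from every WT library. A gene belonged to the set when its deposited count was at least 20 in each of the 3 KO libraries and at most 3 in each of the 3 WT libraries. The same counts were met by 45 genes, from which 5 *Hox* genes, *Ly6c1*, *F2rl3* and *Tpsab1* were left out by name. The set included 29 protein-coding genes, 5 antisense RNAs, 1 long intergenic RNA, 1 processed transcript and 1 gene of the GENCODE type TEC, which awaits an experiment to settle what it encodes. Because the genes were chosen by these counts, their difference between KO and WT is given as a description, without a test.

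The libraries came from left ventricular cardiac fibroblasts of mice labelled as lacking KDM5B (KO) and of their WT littermates. KDM5B is a histone demethylase that acts on methylated lysine 4 of histone H3, a mark of active promoters, and it thereby represses transcription. The KO allele was made with CRISPR/Cas9 and lacks a stretch of *Kdm5b* that encodes the catalytic JmjC domain, on a C57BL/6 background. Mice of both genotypes were males of 8 to 10 weeks with a myocardial infarction (MI), made by permanently tying off the left anterior descending artery, and cells were taken on Day 7. The sources used here do not say whether the 3 libraries of a genotype came from separate mice, so p-values measure the spread between these libraries. The deletion is present in every cell type, and in bulk RNA a change in the number of cells of a type and a change in RNA per cell cannot be told apart.

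Library totals ranged from 12025403 to 15329427 counts. The 3 counts that an observed 0 allows in a single library therefore equal 0.193 to 0.246 CPM (counts relative to library totals scaled by TMM). *Kdm5b* was counted 1198, 1424 and 1628 times in KO and 1545, 1883 and 1734 times in WT. Its log2 fold change was -0.22 (SE 0.07, adjusted p = 0.0574 from edgeR; 0.0188 to 0.175 under other settings), with 103 ± 4.60 CPM in KO and 119.98 ± 10.6 CPM in WT. The study itself reported that KO cardiac fibroblasts had nearly no *Kdm5b* mRNA by Q-PCR and nearly no protein by immunoblot, unlike these counts. The cause of this difference was not tested. A count over the whole gene does not show whether the deleted part is missing, so it does not check the genotypes, and KO and WT stand for the labels as given. The 16 fibroblast marker genes summed to between 27507 and 32069 CPM in KO and between 38538.5 and 40966.6 CPM in WT, and 14 of them passed the test as lower in KO. Endothelial marker genes summed to between 3345 and 4498 CPM in KO and between 1019 and 1023 CPM in WT. Of 31 tested endothelial genes 25 passed as higher in KO, with a median log2 fold change of 2.55 over the tested genes, and none of the 32 listed was at 0 in all libraries. Of all tested genes, 17.7% passed as higher and 12.5% as lower in KO. The part of endothelial RNA in the counts of the 37 genes was not tested.

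The set touches several protein families. NLR and GIMAP proteins are intracellular sensors and GTPases of immune cells and the germ line, G protein-coupled receptors and their ligands carry signals of peptides and proteases, and membrane transporters and redox enzymes handle single substrates in specialised epithelia and neurons. Antisense RNAs are transcribed from the strand opposite a host gene, often from within its introns. CpG-poor promoters are typical of tissue-restricted genes, whereas CpG-rich promoters are typical of broadly expressed genes.

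Promoter windows, each from 250 bases before to 50 bases after a RefSeq transcription start, were matched by symbol to 22 of the 37 genes and gave 24 windows (GRCm38.p6). The 250 bases before the start are printed for the most abundant gene (*Gm42835*, named *Gm4610* in RefSeq), for *Gimap3* and for *Gchfr*, which lie among neighbours that moved with them or apart from them. All are written 5′ to 3′ on the gene's own strand, and capitals mark the words CCAAT and GGGCGG on either strand. The windows lie at chr3:122391997-122392246 (minus strand), chr6:48770852-48771101 (minus strand) and chr2:119167538-119167787 (plus strand).
Gm42835: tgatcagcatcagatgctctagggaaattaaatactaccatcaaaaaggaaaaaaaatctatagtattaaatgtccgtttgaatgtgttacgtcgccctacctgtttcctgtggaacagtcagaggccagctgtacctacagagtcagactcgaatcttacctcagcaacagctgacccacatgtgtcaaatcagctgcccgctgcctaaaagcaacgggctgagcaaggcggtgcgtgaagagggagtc
Gimap3: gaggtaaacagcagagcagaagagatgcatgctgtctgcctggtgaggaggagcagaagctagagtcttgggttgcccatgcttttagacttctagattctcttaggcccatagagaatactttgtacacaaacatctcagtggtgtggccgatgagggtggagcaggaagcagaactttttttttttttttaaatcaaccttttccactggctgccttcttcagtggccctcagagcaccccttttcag
Gchfr: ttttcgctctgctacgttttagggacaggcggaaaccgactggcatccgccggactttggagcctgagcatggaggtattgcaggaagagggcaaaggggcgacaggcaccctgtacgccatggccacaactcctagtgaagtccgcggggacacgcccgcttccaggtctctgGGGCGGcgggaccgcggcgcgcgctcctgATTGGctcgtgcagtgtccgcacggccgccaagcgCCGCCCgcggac
The *Gm42835* and *Gimap3* stretches hold 8 and 1 CpG dinucleotides and none of the 8 words searched, whereas the *Gchfr* stretch holds 27 CpG dinucleotides, GGGCGG at 76 and 12 bases and CCAAT at 47 bases before the start.

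CpG content is given as a description, for the 22 matched genes alone. The median was 4.5 CpG dinucleotides per 300-base window against 7 over all 32851 windows, and 12 of 24 (50%) held fewer than 5 against 38.0% of all. At the other end, 4 windows (16.7%, *Ccdc184*, *Slc6a3*, *Sstr2* and *Gchfr*) held 15 or more against 34.6% of all. *Nlrp4e* had 0 CpG dinucleotides in its window, *Rtp3* and *Tac4* had 1 each, and *Sstr2* had 27. A share of all windows is a description of the reference, and windows of 1 gene can overlap, as those of *Cyp4f40* do.

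**Figure D1:**
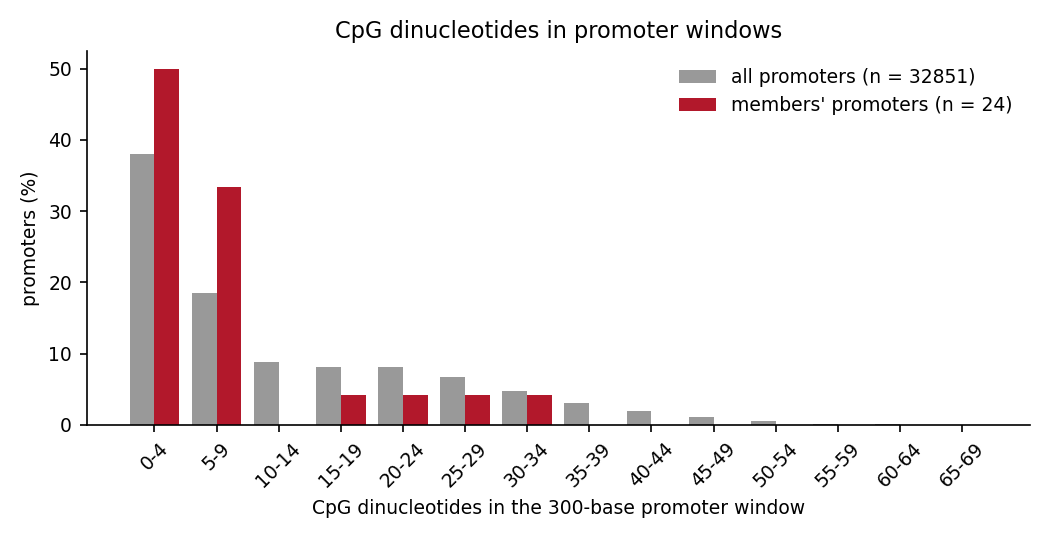
CpG dinucleotides per 300-base promoter window (x axis, bins of 5) against the percentage of windows (y axis) for all 32851 RefSeq windows (grey bars) and the 24 windows of the set (red bars). Of these, 20 windows of the set fall in the first 2 bins, and the other 4 lie between 19 and 31.

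A total of 8 words bound by common transcription factors were searched on both strands of the same 300 bases. The AP-1 word TGACTCA was found in 4 of 24 windows (16.7%), those of *Adh7*, *F2rl2*, *Gm14137* and *Gm16104*, against 5.2% of all windows. CCAAT was found in 41.7% against 37.4%, GGGCGG in 33.3% against 35.7%, TATAAA in 8.33% against 13.6%, CACGTG in 4.17% against 7.15%, TGACGTCA in 4.17% against 1.79%, CCGGAAG in 4.17% against 8.86%, and TGATAA in 0% against 9.05%. The 7 letters of TGACTCA are contained in none of the other words. The 4 AP-1 words are shown with 20 bases on each side, in capitals, because this word differed most in share from the reference in the upward direction, a choice made after the shares were seen.
Adh7: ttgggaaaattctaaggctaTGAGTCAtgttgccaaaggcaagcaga
F2rl2: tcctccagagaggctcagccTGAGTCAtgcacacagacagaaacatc
Gm14137: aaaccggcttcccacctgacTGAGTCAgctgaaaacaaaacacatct
Gm16104: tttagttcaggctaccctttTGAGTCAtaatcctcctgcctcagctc
The words stand at 25, 54, 60 and 3 bases before the starts of *Adh7*, *F2rl2*, *Gm14137* and *Gm16104*, in the orientation TGAGTCA, and *Gm16104* holds another after its start. A match of letters says nothing on binding in these cells.

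In KO the 37 genes were counted 6331 times in all, and in WT 61 times. Their summed counts were 2377, 1686 and 2268 in KO-1, KO-2 and KO-3 and 17, 24 and 20 in the WT libraries. Of the 37, 17 had a count of 0 in all 3 WT libraries and 20 had at least 1 WT count. All 37 passed the expression filter, which the rule's KO limit makes likely. Of the 14084 genes that passed it, edgeR called 17.7% higher and 12.5% lower in KO, and no call is read for the 37, since the rule had used the same counts. Mean KO levels per transcript length ranged from 0.235 to 22.9 FPKM with a median of 1.19, at the 21.9 percentile of all tested genes, so the set lies low in the KO transcriptome. The genes were also short, with a median length implied by the 2 deposited values of 2734 bases against 5254.5 bases over the tested genes.

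**Figure D2:**
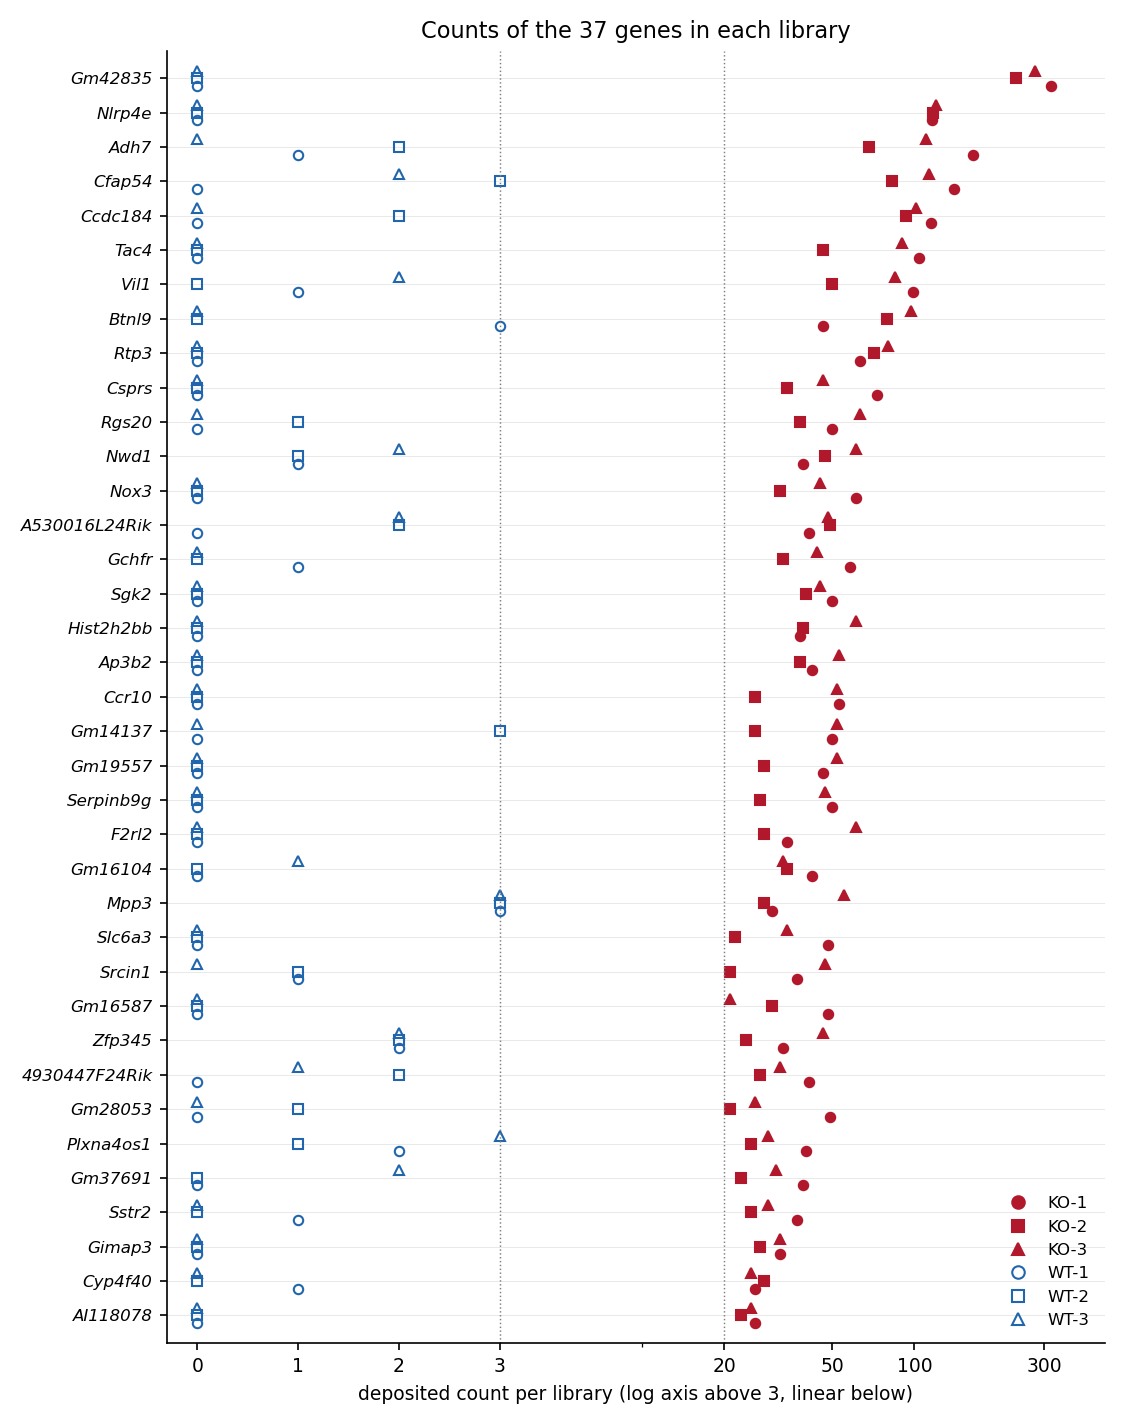
Deposited count in each library (x axis, logarithmic above 3 and linear below) for the 37 genes (rows, ordered by mean KO CPM), with KO libraries as filled and WT libraries as open symbols. The dotted lines at 3 and 20 are the limits of the rule, and *Gm42835* stands above the others with 236 to 317 counts in KO.

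The genes next to the limits show how sharp the selection was. Just inside it on the KO side lay *Gm16587* with 48, 30 and 21 counts in KO, *Gm28053* with 49, 21 and 26 (0, 1 and 0 in WT), and *Srcin1* with 37, 21 and 47. On the WT side the closest was *Mpp3*, with 30, 28 and 55 counts in KO and 3, 3 and 3 in WT, and *Plxna4os1*, *Cfap54*, *Btnl9* and *Gm14137* reached 3 in 1 WT library each. Just outside, 53 genes failed by 1 library or by a WT count of 4 to 6. The most abundant of these was *Cpne5* with 180, 170 and 263 counts in KO and 5, 3 and 3 in WT, followed by *Atp8b3* with 129, 78 and 117 in KO and 3, 1 and 4 in WT. *Nrgn* with 80, 92 and 97 against 4, 2 and 3, *Gm3716* with 117, 57 and 98 against 5, 5 and 1, and *Gm12603* with 108, 49 and 74 against 6, 0 and 5 completed the 5 most abundant.

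The 8 genes not typed as protein-coding held the highest level of the set. *Gm42835* (ENSMUSG00000104554, chr3:122377097-122391811, minus strand), an antisense RNA inside an intron of *Bcar3*, was counted 317, 236 and 277 times in KO and 0 times in each WT library. Its KO level was 22.9 ± 5.38 FPKM (SD, n = 3). Scaled by library totals, its summed KO counts were at least 290-fold higher than the 3 counts that 0 allows over the WT group. *Gm16104* (chr10:81409575-81411579), antisense within *Nfic*, was counted 42, 34 and 33 times in KO and 0, 0 and 1 times in WT, and its short transcript gave 6.82 ± 1.71 FPKM, the second level of the set. The next levels were lower.
*Gm16587* (chr1:164143432-164146366), antisense within the P-selectin gene *Selp*, reached 2.94 ± 1.54 FPKM in KO from the counts given above, with 0 in each WT library. A *Hist2h2bb* row of longer span (ENSMUSG00000050936, chr3:96269721-96279001), which GENCODE names *Gm42743* and types as a long intergenic RNA, was counted 38, 39 and 61 times in KO and 0 times in WT. *4930447F24Rik*, a processed transcript inside *Bsn*, was counted 41, 27 and 32 times against 0, 2 and 1. *Plxna4os1*, antisense to the semaphorin receptor gene *Plxna4*, was counted 40, 25 and 29 times against 2, 1 and 3, the second lowest ratio of the set at 16.4. *Gm19557*, antisense within *Obfc1*, was counted 46, 28 and 52 times in KO and 0 times in WT. The last of the 8, *Gm37691*, has the type TEC. It lies within *Lamb3* on the same strand and reached 0.907 FPKM.

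Receptors, ligands and signaling proteins formed a group of 7, of which 5 had 0 counts in all WT libraries. *Tac4* (chr11:95261529-95269265), which encodes hemokinin, a tachykinin peptide ligand of blood-forming cells, was counted 104, 46 and 90 times in KO and 0 times in WT, at 4.79 ± 2.07 FPKM and at least 83.8-fold higher. *Rtp3* (chr9:110984935-110990583), a liver-expressed transporter of receptors to the cell surface, was counted 63, 71 and 80 times in KO and 0 times in WT. It was the most even of the set across KO libraries, with a coefficient of variation of 1.86% of its CPM. That lies below the lowest counting error of a KO count in the set (6.04%), so it is not read as a trait of the gene. *F2rl2* (chr13:95696853-95702739), which encodes the thrombin-activated receptor PAR3, was counted 34, 28 and 61 times against 0 in each WT library. Its family member *F2rl3* met the same counts and was left out by name.
*Ccr10* (chr11:101172997-101175443), a chemokine receptor of skin-homing and plasma cells, was counted 53, 26 and 52 times in KO and 0 times in WT, at 1.88 ± 0.712 FPKM. *Rgs20*, a brain regulator of G protein signaling, was counted 50, 38 and 63 times against 0, 1 and 0. The kinase gene *Sgk2* and the somatostatin receptor gene *Sstr2* lay below 1 FPKM in KO, at 0.702 and 0.484, with KO counts between 25 and 50. The group thus held both a peptide ligand and receptors for other ligands, and the KO and WT counts of no gene overlapped, as the rule fixes.

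Among enzymes and transporters, *Adh7* (chr3:138217760-138233382), the alcohol and retinol dehydrogenase of stomach epithelium, was counted 164, 68 and 110 times in KO and 1, 2 and 0 times in WT, a ratio of 119. *Gchfr* (chr2:119167773-119172390), the feedback regulator of GTP cyclohydrolase I in the synthesis of tetrahydrobiopterin, was counted 58, 33 and 44 times in KO and 1, 0 and 0 times in WT. Per length it was the third most abundant gene, at 5.26 ± 1.94 FPKM in KO. Tetrahydrobiopterin is a cofactor of nitric oxide synthases, among them the endothelial *Nos3*.
*Nox3*, the NADPH oxidase of the inner ear, was counted 61, 32 and 45 times in KO and 0 times in WT. *Cyp4f40*, a cytochrome P450 of the fatty acid hydroxylase family, was counted 26, 28 and 25 times against 1, 0 and 0. *Slc6a3*, the dopamine transporter of midbrain neurons, was lowest of the 5 at 0.759 FPKM, with 48, 22 and 34 counts in KO and 0 in WT. In all of the 5 but *Cyp4f40*, KO-1 held the highest count although it was the smallest library.

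Immune-type families made up 7 genes. *Nlrp4e* (chr7:23301275-23362270), an NLR gene of the oocyte, was counted 116, 117 and 120 times in KO and 0 times in each WT library, at 2.58 ± 0.268 FPKM and at least 123-fold higher. It had the second highest CPM of the set, 8.67 ± 0.885, and little spread between KO libraries. *Btnl9*, a butyrophilin-like gene also known from capillary endothelium, was counted 46, 79 and 97 times in KO and 3, 0 and 0 times in WT, and was 1 of 2 genes with their lowest CPM in KO-1. *Csprs*, a component of the Sp100-rs repeat that the table places on the unplaced scaffold GL456221.1, was counted 73, 34 and 46 times against 0. *Serpinb9g*, a serpin of the family that inhibits granzyme B, was counted 50, 27 and 47 times against 0.
*Nwd1*, a protein with NACHT and WD-repeat domains, was counted 39, 47 and 61 times in KO and 1, 1 and 2 times in WT, but at 0.235 FPKM it had the lowest level per length of the set. *Gimap3*, a GTPase of lymphocyte survival, was counted 32, 27 and 32 times in KO and 0 times in WT. *Gm28053*, beside it, is annotated by GENCODE as a transcript that overlaps the *Gimap* genes.

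Cytoskeletal and scaffold genes were 5, and *Vil1* (chr1:74409376-74435559), villin of the intestinal brush border, was the only one above 1 FPKM, with 99, 50 and 85 counts in KO and 1, 0 and 2 in WT. *Cfap54*, a gene of the axoneme of motile cilia, was counted 140, 83 and 113 times against 0, 3 and 2, but its long transcript gave 0.542 FPKM. *Ap3b2*, *Srcin1* and *Mpp3*, neuronal proteins of vesicle coats, synapses and membrane scaffolds, lay between 0.260 and 0.438 FPKM. *Mpp3* had the lowest ratio of the 37, 13.2.
The last 5 were nuclear or little characterised proteins. *Ccdc184* (chr15:98167806-98170134) was counted 115, 93 and 101 times in KO and 0, 2 and 0 times in WT, at 3.32 ± 0.691 FPKM. *A530016L24Rik* was counted 41, 49 and 48 times against 0, 2 and 2, and *Gm14137* 50, 26 and 52 times against 0, 3 and 0. The zinc finger gene *Zfp345* and *AI118078*, which GENCODE names *Tmem266*, lay at 0.921 and 0.293 FPKM.

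Levels of the 37 genes differed among the KO libraries. The rule used these counts, and its limit of 20 in each library is a higher CPM in KO-1, with the smallest total, than in KO-3, so the order of the libraries is a description. In CPM, 28 of the 37 were highest in KO-1, 7 in KO-3 and 2 in KO-2, and 24 were lowest in KO-2. Relative to each gene's KO mean, the median level was 1.27 in KO-1, 0.778 in KO-2 and 0.892 in KO-3. The 25 endothelial genes called higher had medians of 1.12, 0.864 and 1.001, with 20 highest in KO-1 and 23 lowest in KO-2, and the 2451 other genes called higher had medians of 1.06, 0.941 and 0.996, with 1559 highest in KO-1 and 1545 lowest in KO-2. All 14047 tested genes outside the set had medians of 0.998, 0.9997 and 0.997. The coefficient of variation of the set had a median of 29.6% and ranged from 1.86% to 56.9%. The counting error of a single KO count had a median of 15.7% over the set and ranged from 6.04% to 20.2%. The coefficient of variation exceeded the counting error in 30 of the 37. With 3 libraries the order was not tested.

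**Figure D3:**
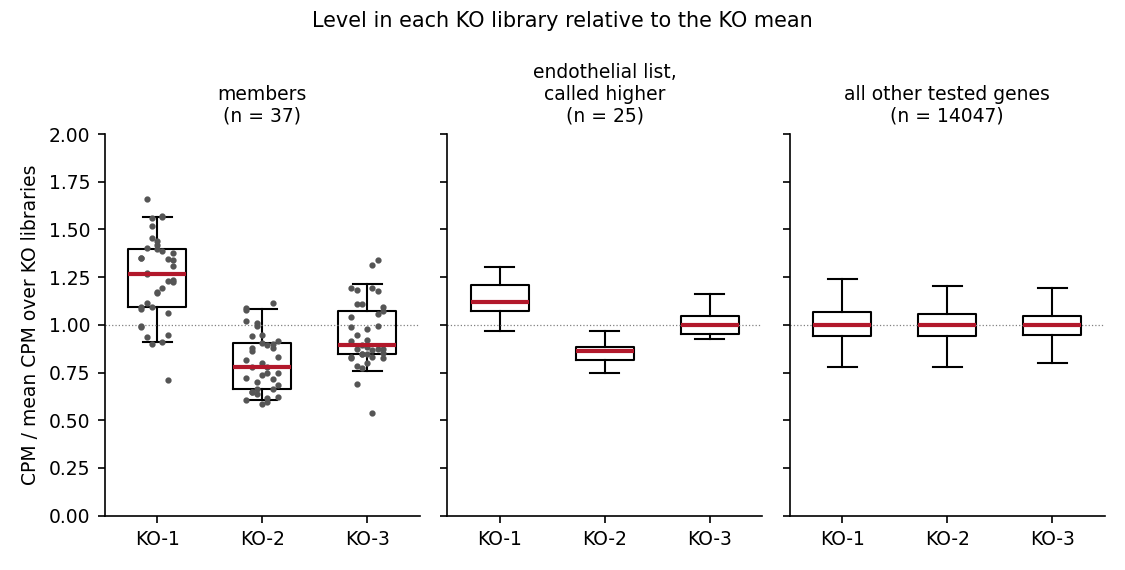
CPM in each KO library divided by the gene's mean over the KO libraries (y axis) for the 37 genes (points and boxes), the 25 endothelial genes called higher and the 14047 other tested genes. Boxes span the quartiles with the median in red and whiskers reach the 5th and 95th percentiles, and the medians of the first 2 groups are highest in KO-1 and lowest in KO-2.

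The genes were spread over the genome rather than gathered in a block. Chromosome 11 held 6 of them, chromosomes 1 and 2 held 4 each, and chromosomes 3, 6, 9 and 13 held 3 each. On chromosome 1, which carries *Kdm5b*, the closest member (*Gm16587*) lay 29.6 Mb away and the farthest (*Rgs20*) 129.7 Mb. Only 3 pairs of members lay within 1 Mb of each other. *Gchfr* and *Gm14137* were 2119 bases apart, *Gm28053* and *Gimap3* 11820 bases, and *Ccr10* and *Mpp3* 824209 bases, while *Nwd1* lay 47134 bases from the left-out *F2rl3*.

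In the *Gimap* cluster the surrounding family moved together. *Gimap* genes encode GTPases of immunity-associated proteins, best known from lymphocytes, and they lie side by side on chromosome 6. All 6 tested relatives passed the edgeR test as higher in KO, against 17.7% of all tested genes, with a median log2 fold change of 4.10. However, *Gimap8* (9, 3 and 5 counts in WT), *Gimap4* (22, 9 and 9), *Gimap1* (6, 12 and 16) and *Gimap5* (29, 10 and 9) entered the test only through the KO libraries. Their calls were conditioned on those libraries. *Gimap6* (122, 83 and 92 counts in WT) and *Gimap9* (87, 67 and 67) had enough WT counts to pass the filter without KO. *Gimap6*, the most abundant, rose from 6.92 ± 1.47 to 98.9 ± 23.3 CPM (log2 fold change 3.84, SE 0.21, adjusted p = 1.16e-05). *Gimap4* rose from 0.931 ± 0.527 to 55.9 ± 6.48 CPM (5.89, SE 0.24, adjusted p = 3.99e-06). *Gimap8* rose by 5.47 (SE 0.42), *Gimap5* by 4.36 (SE 0.34), *Gimap1* by 3.51 (SE 0.27) and *Gimap9* by 2.51 (SE 0.16) on the log2 scale, with adjusted p between 2.39e-05 and 6.13e-05 from edgeR.
In all 6, the lowest KO library lay above the highest WT library in CPM, as in 24.7% of all tested genes. *Gimap3*, at 2.24 ± 0.333 CPM in KO, lay below all 6, and *Gimap7* was counted once in all. A further gene beside *Gimap3*, *RP24-315D19.4*, rose by 3.30 (SE 0.51, adjusted p = 0.00211, edgeR), from 5 counts in WT to 50 in KO. It too entered the test only through the KO libraries. The 15 lymphocyte marker genes were at or near 0, as 9 were at 0 in all libraries, none passed the expression filter, and they summed to 1.28 to 1.56 CPM in KO and 1.33 to 1.71 CPM in WT. The endothelial list moved with the *Gimap* genes, with 25 of 31 tested genes higher, a median log2 fold change of 2.55 and the sums given above, and its part in their levels was not tested.

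**Figure D4:**
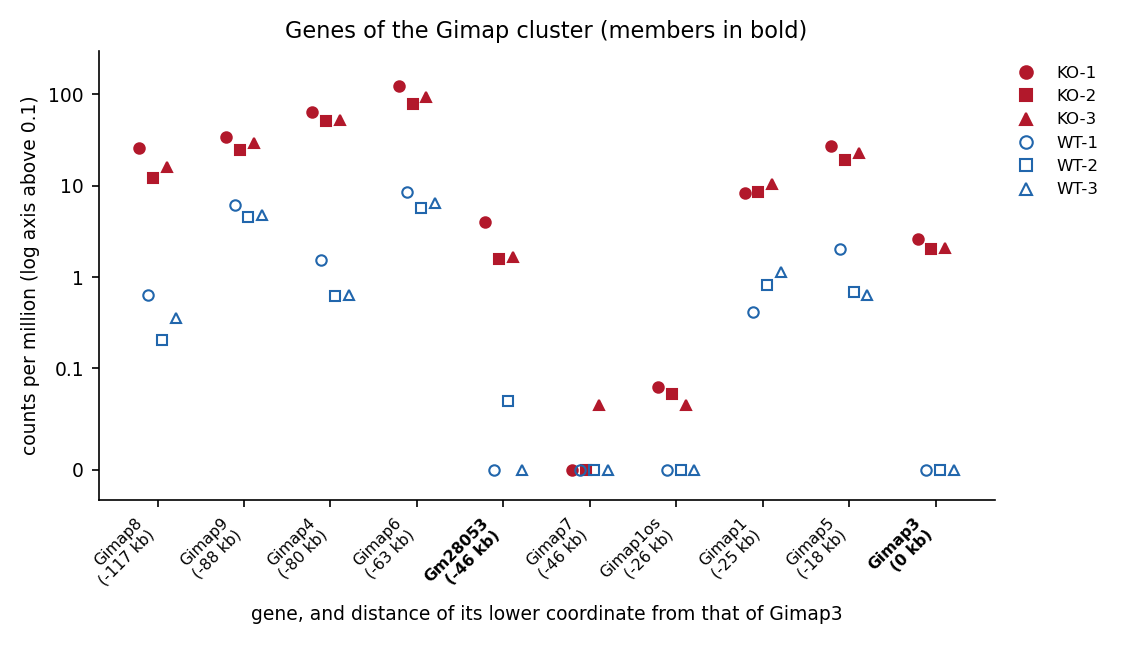
CPM in each library (y axis, logarithmic above 0.1) for the genes of the *Gimap* cluster, ordered along chromosome 6 with the distance of each gene's lower coordinate from that of *Gimap3*. *Gimap3* and *Gm28053* (bold) are the members, and the 6 tested relatives have all KO libraries above all WT libraries.

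Some members share bases with other genes, which limits how far a count belongs to them. Spans of other genes overlapped 19 of the 37, and 9 shared exon bases with them. *Gm28053* shared the largest part, with 20.02% of its exon bases in *Gimap1*, 20.02% in *Gimap1os*, 15.5% in *Gimap5* and 8.19% in *Gimap7*, and *Gimap5* and *Gimap1* rose in KO. How strand was treated in the counting is not given in the sources used here, so reads of a gene and its antisense partner may not be separated.
Of 15 tested genes whose spans overlap a member, 10 (66.7%) passed as higher in KO, against 17.7% of all tested genes, with a median log2 fold change of 0.73 against -0.02 over all genes. Among the 10, *Gimap5*, *Gimap1* and a shorter *Hist2h2bb* gene entered the test only through the KO libraries, so their calls were conditioned on them. *Lamb3*, a laminin chain gene that holds *Gm37691* on its own strand, rose by 2.07 (SE 0.24, adjusted p = 4.77e-04). *Cntnap1*, antisense to *Ccr10*, rose by 1.66 (SE 0.14), *Bcar3*, the adaptor gene around *Gm42835*, by 1.45 (SE 0.16), and *Obfc1*, a telomere-capping gene around *Gm19557*, by 1.31 (SE 0.09), all with adjusted p of at most 4.36e-04 from edgeR. The shorter *Hist2h2bb* gene (ENSMUSG00000105827), which shares 14.96% of the longer row's exon bases, rose by 4.47 (SE 0.66, adjusted p = 0.00165), from 3 counts in WT to 70 in KO.
*Usp37*, opposite the end of *Vil1*, rose by 0.73 (SE 0.08), and *Plxna4* and *Slc39a11* (around *Sstr2*) rose by 0.26 each, with adjusted p of 0.0322 and 0.0394 that reached 0.107 and 0.124 under other settings. Other hosts did not pass the test. *Selp*, which shares 21.6% of the exon bases of *Gm16587*, was at 105 ± 8.44 CPM in KO and 102 ± 3.27 CPM in WT (log2 fold change 0.04, SE 0.07, adjusted p = 0.698, edgeR), while *Gm16587* had counts in KO libraries alone. *Nfic*, around *Gm16104*, was at 190 ± 20.3 and 177 ± 28.4 CPM (0.10, SE 0.12, adjusted p = 0.560, edgeR). *Iqgap2* around *F2rl2*, *Dnajc17* around *Gm14137* and *Atp6v1h* beside *Rgs20* had log2 fold changes of -0.06, -0.03 and 0.09, with adjusted p between 0.274 and 0.929.

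**Figure D5:**
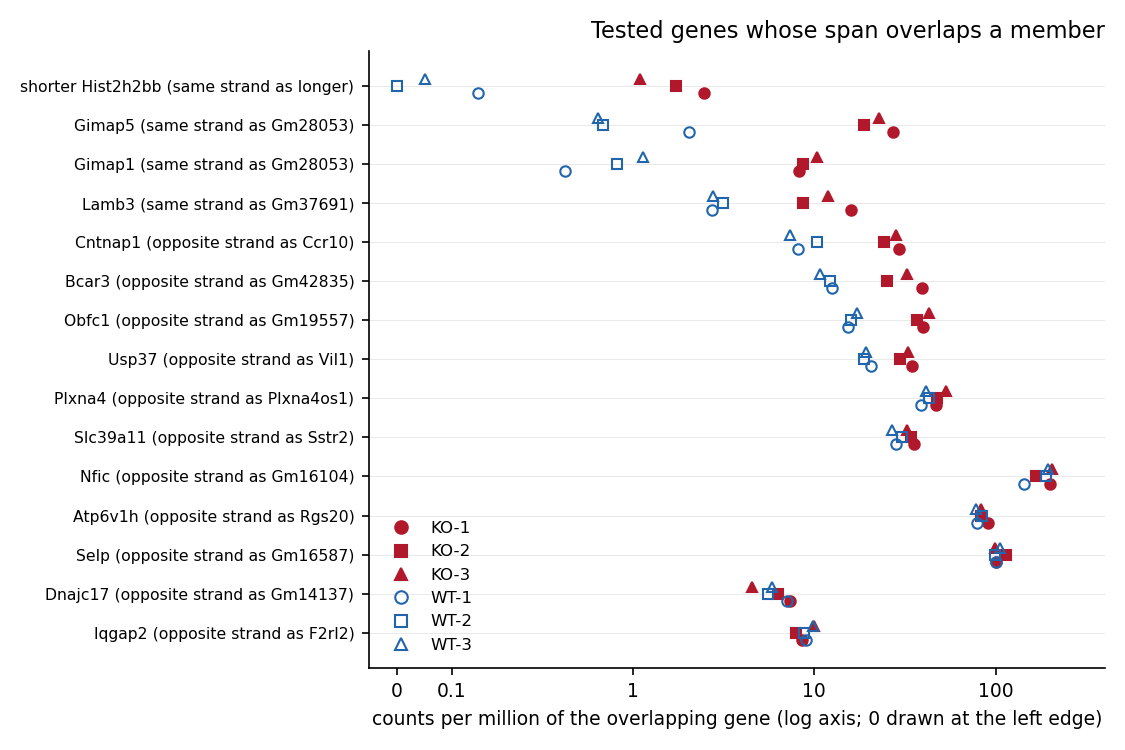
CPM in each library (x axis, logarithmic, with 0 at the left edge) of the 15 tested genes whose span overlaps a member, ordered by log2 fold change. From *Slc39a11* upward all KO libraries lie above all WT libraries, as in 24.7% of all tested genes, and the libraries of *Selp* and *Nfic* overlap.

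The nearest tested gene on each side of a member, with its start within 500 kb, gave 66 neighbours. Of these 22 (33.3%) passed as higher and 3 (4.55%) as lower in KO, against 17.7% and 12.5% of all tested genes, and the median log2 fold change was 0.10. Without the neighbours that overlap a member, 14 of 53 (26.4%) were higher and 3 (5.66%) lower. *Tmem179*, beside *A530016L24Rik*, rose by 2.66 (SE 0.47, adjusted p = 0.00361, edgeR), from 8 counts in WT to 50 in KO. The kinase gene *Slk*, beside *Gm19557* and *Obfc1*, rose by 1.18 (SE 0.09, adjusted p = 5.98e-05, edgeR). The other rises outside the *Gimap* cluster and the overlapping genes were under 1 on the log2 scale, with *Cdk17* (0.97) and the integrin gene *Itga3* (0.96) next. The 3 lower neighbours were *Apeh*, *G0s2* and *Gm14121*, with log2 fold changes between -0.44 and -0.21, and this count fell to 0 under several other settings.
The other 41 neighbours passed in neither direction, among them *Dnajc17*, whose span holds *Gm14137*. Of 181 genes below the expression filter within 150 kb of a member, 4 (2.21%) had at least 20 counts over the KO libraries and at most 1 over the WT libraries, against 72 of all 20661 such genes (0.348%). These limits and the window were chosen after the values were seen, so the sparse WT counts of the 4 genes were set by the choice. *Slc6a19*, beside *Slc6a3*, was counted 11, 8 and 16 times in KO and 0 times in WT, *Dlx3*, near *Tac4*, 7, 5 and 17 times against 1, 0 and 0, *Gm11611*, inside *Srcin1*, 16, 8 and 16 times against 0, and *Gm37277*, beside *Rgs20*, 14, 11 and 6 times against 0.

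Relatives with the same symbol stem showed no common shift over all families. Of 746 tested relatives 134 (17.96%) passed as higher and 70 (9.38%) as lower, near the shares of all genes, and leaving out the large *Slc*, *Zfp* and *Ccdc* stems gave 30 of 96 (31.25%) and 7 (7.29%), of which *Gimap* and *Hist* genes made up 15 of the 30. Of those 15, at least *Gimap1*, *Gimap4*, *Gimap5*, *Gimap8* and the shorter *Hist2h2bb* entered the test only through the KO libraries. Histone genes were higher in 9 of 18 tested, with a median log2 fold change of 1.09. Beyond the shorter *Hist2h2bb* these were *Hist1h1e* (2.87), *Hist1h4m* (2.77), *Hist1h2bq* (2.15), *Hist1h2bg* (2.11), *Hist1h2br* (1.93), *Hist1h1d* (1.83), *Hist1h2be* (1.29) and *Hist1h4i* (1.24), in log2 fold change. Replication-dependent histone messages lack a poly(A) tail.
Of 5 tested *Nlrp* genes 3 were higher. *Nlrp4f*, the closest by name to *Nlrp4e*, was counted 52 times in KO and 0 times in WT and entered the test only through the KO libraries, so its call was conditioned on them. Of the other 4, *Nlrp1b* rose by 1.89 (SE 0.33) and *Nlrp3*, the inflammasome sensor, by 0.85 on the log2 scale. *Nlrp4f* failed the rule of the set although its WT count was 0. By contrast, the closest counted relatives of several members moved little. *Nox4* (0.17), *Adh5* (-0.16), *Sgk1* (0.05), *Sgk3* (-0.04) and *Rtp4* (-0.10) did not pass the test in log2 fold change.
Single relatives elsewhere were called higher with a log2 fold change above 1, as were 5.99% of all tested genes. They were *Plxna2* (2.07), *Cfap69* (1.31), *Mpp1* (1.01), *Cyp39a1* (1.04), *Rgs9* (1.54) and *Rgs2* (1.22). Of 91 tested *Ccdc* genes there were 8 (8.79%), from *Ccdc126* (1.03) through *Ccdc92*, *Ccdc159*, *Ccdc18*, *Ccdc137*, *Ccdc85b* and *Ccdc138* to *Ccdc85c* (1.73). Of 337 *Zfp* genes there were 5 (1.48%), from *Zfp808* (1.05) through *Zfp961*, *Zfp101* and *Zfp69* to *Zfp467* (1.76). Of all tested *Zfp* genes 10.4% were higher at any fold, fewer than the 17.7% of all genes, and 6.53% lower. Of 222 *Slc* genes there were 12 (5.41%), near the share of all genes, and 47 (21.2%) were higher and 34 (15.3%) lower at any fold. The 12 ran from *Slc9a3r2* (1.06) through *Slc27a1*, *Slc12a2*, *Slc35g2*, *Slc22a23*, *Slc16a13*, *Slc5a3*, *Slc46a3*, *Slc12a5*, *Slc37a1* and *Slc52a3* (2.88) to the bicarbonate transporter gene *Slc4a8* (4.51). Of the relatives named in this and the preceding paragraphs, *Rgs2*, *Rgs9*, *Zfp961*, *Zfp808*, *Ccdc159*, *Ccdc137*, *Slc12a5*, *Hist1h1d* and *Hist1h2bg* did not pass under at least 1 other setting, with adjusted p of up to 0.118 (*Zfp961*, edgeR without a WT library).

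Near-identical copies were searched among GENCODE transcripts, since reads of 150 bases cannot be placed within longer identical stretches. Transcripts were found for 36 of the 37 genes, all but *Csprs*, whose copies could therefore not be searched. Of the 36, 5 had a transcript of a gene elsewhere with at least 95% identity over at least 150 bases. *Ap3b2* matched *Gm45906*, which is no row of the table, at 100% over 353 bases. *Nlrp4e* matched 6 genes, the longest being *Gm16443* at 98.26% and *Gm8685* at 98.214%, both over 2184 bases. Of those 6 only *Nlrp4c* is a row of the table, with 0 counts in all libraries. *Serpinb9g* matched *Serpinb9f* at 97.543% over 1913 bases, and *Serpinb9f* was counted 4, 0 and 0 times in KO and 0 times in WT. *Gimap3* matched *Gimap5* at 97.917% over 720 bases. *Gimap5* was counted 334, 252 and 355 times in KO, and 29, 10 and 9 times in WT where *Gimap3* had 0. *Zfp345* matched *Gm14139* and *Gm14124*, which were themselves counted 15, 16 and 24 and 13, 12 and 18 times in KO and at most 1 time in each WT library. Counts of these 5 genes are uncertain to the extent that reads were shared with their copies, and for *Csprs* this is unknown.

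Marker lists of other cell types were read beside the members. Of the oocyte and early embryo list, 24 of 42 genes were at 0 in all libraries, and of 3 tested *Nlrp4f* alone was called higher, on the KO counts that let it into the test. The neural and glial list summed to 112 to 120 CPM in KO and 146 to 159 CPM in WT, with 2 of 7 tested genes lower (12.5% of all tested genes were), beside the neuronal members *Ap3b2*, *Srcin1*, *Mpp3* and *Slc6a3*. The epithelial list summed to 172 to 203 CPM in KO and 220 to 228 CPM in WT, with 2 of 13 tested genes higher and 6 lower, beside *Vil1* and *Adh7*. Of the 2, *Grhl2* (227 counts in KO and 4 in WT) was tested only through KO. Testis and meiosis genes were higher in 1 of 7 tested (*Mov10l1*, with 120 counts in KO and 28 in WT, tested only through KO), and 12 were at 0 in all libraries. The shares called higher in these lists can be set against 17.7% of all tested genes.
Among blood-related lists single genes carried most of the difference in sums. The hematopoietic progenitor list summed to 630 to 800 CPM in KO and 249 to 258 CPM in WT, with 7 of 15 tested genes higher and 5 lower and a median log2 fold change of 0.16. Without *Procr*, the protein C receptor gene of endothelium and stem cells, the sums were 240 to 255 and 224 to 236 CPM. The erythroid and megakaryocyte list summed to 32.6 to 45.3 CPM in KO and 6.58 to 9.76 CPM in WT, with 2 of 5 tested genes higher, *Pf4* and *Gp1ba* (46 counts in KO and 0 in WT, and so tested only through KO), beside *F2rl2* and *Tac4*, and without the platelet factor gene *Pf4* they were 3.68 to 6.39 and 3.22 to 4.16 CPM. Mast cell genes were higher in 2 of 4 tested, *Gata2*, which is also in the progenitor list, and *Tpsab1*, which met the rule and was left out by name, so that its call was fixed by the rule, and 7 of 16 were at 0 in all libraries. Trophoblast genes were higher in both of 2 tested (*Psg17* and *Psg22*), and 25 of 43 were at 0 in all libraries. Cardiomyocyte genes were lower in 8 of 11, macrophage genes in 6 of 13 tested rows with 2 higher (12 genes, since *Itgam* has 2 rows, neither of which passed), and mural cell genes in 5 of 9 with 2 higher. The part of any of these in the counts of the 37 genes was not tested. Over all lists 46 genes were called lower, and 32 to 42 with 1 library left out, so the counts of lower genes in single lists are uncertain.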

How the data were processed

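RNA-seq libraries of cardiac fibroblasts from KDM5B-KO (3) and littermate WT (3) mice were analysed from a table of 34745 genes. Per the labels and the methods of the study, 150 bp paired-end reads were mapped by the authors to mm10 (GRCm38.p4) with HISAT2, and edgeR is named in the submitters' processing notes. The counting tool, annotation release and strand setting are not given in the sources used here. The deposited counts are whole numbers per gene, not normalized, and the deposited FPKM values are those counts scaled by gene length and library total. No per-sample column was left without a sample.

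The members, marker lists, groups and tests were chosen with earlier results of these data known. Genes were tested with edgeR 4.0.16 (R 4.3.3; filterByExpr, TMM, glmQLFit and glmQLFTest, Benjamini-Hochberg adjustment, adjusted p under 0.05), on the deposited counts of all 6 libraries with no covariate. Of 34745 genes 14084 passed the filter, with totals of 12025403 to 15329427 counts, and the number of libraries limits the precision of each value. In pairs of libraries of 1 genotype, 21.9% to 31.6% of genes had an unadjusted p under 0.05, so no pair was treated as 1 library deposited again, which does not show that they came from separate mice.

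Folds compare counts summed over the libraries of each group, divided by the sum of their library totals scaled by TMM. Where all WT counts were 0 they are lower bounds against 3 counts over the WT group, and otherwise ratios, given with no interval because the rule fixed the counts. The bounds cover counting error only. Overlaps, transcript types and transcripts came from GENCODE M21 (GRCm38), in which all 37 members were found, 31 with the same span, and 34344 of the listed genes. Transcript copies were searched with BLAST+ 2.17.0. Promoters came from RefSeq (GRCm38.p6), and plots were made in Python 3.11.15 (matplotlib 3.10.9).

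Every member is named. Counts in all libraries are given for members with a mean KO FPKM of at least 1 or among the 15 highest in mean KO CPM, and for others where a result turns on them. Neighbours and relatives are named where they passed the test with an absolute log2 fold change above 1 or overlap a member, with the exceptions given as next in size or as the closest relatives, which were chosen after their values were seen. The functional groups and the comparison of overlapping genes were also chosen after the data were seen. Alternatives were DESeq2 1.42.0, library size or upper quartile scaling, limma 3.58.1 on log2(FPKM + 1), a fit without the filter or with 1 mean CPM as its limit, a replicate block, omission of each library, a stricter fold, and other limits of the rule and of the neighbour window.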

Additional observations from a re-analysis of the deposited data

How the results depend on the processing

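The count of members followed its limits. At least 10 counts in each KO library gave 88 genes and at least 50 gave 7, a WT count of 0 gave 17 and at most 6 gave 61, a mean FPKM in KO of at least 1 in addition gave 23, and counts scaled to the smallest library gave 31. The larger sets held all 37 genes, and the smaller ones held none outside the 37. Leaving out 1 library gave 40 to 56 genes, most without KO replicate 2 (56), and these must contain the 37, since a condition is dropped.

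An absolute log2 fold change above 1 in addition left 844 genes higher and 38 lower, 9 neighbours higher and 0 lower, 48 relatives higher and 0 lower, and 0 list genes lower. Neighbours called lower, 3 in the fit reported, numbered 0 with DESeq2, with library size only, with no filter and with the replicate block, 5 with the upper quartile, and 0 to 2 with 1 library left out. Leaving out 1 library gave 2013 to 2508 genes higher and 1131 to 1614 lower (1131 without KO replicate 3), 17 to 22 neighbours higher, 37 to 55 relatives lower (37 without KO replicate 3), 8 to 9 overlapping genes higher and 32 to 42 list genes lower. Leaving out stems with over 50 tested genes, chosen after seeing the data, gave 30 relatives higher and 7 lower, and leaving out the *Gimap* cluster, also chosen later, left 19 neighbours higher. The cause of these differences was not tested, other than that fewer genes were counted.

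Replicate numbers did not pair the libraries, since same-numbered libraries deviated together by correlations of 0.00211, 0.00318 and 0.0347. The replicate block gave 2316 genes higher and 1591 lower, 22 neighbours, 127 relatives and 10 overlapping genes higher.

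Of 825 values for 64 named genes under alternatives, 780 kept their side of the threshold, 42 were no longer past it, 3 (all *Kdm5b*) passed it, and no called value changed sign. Upper quartile scaling gave 2210 genes higher and 2263 lower, so the excess of higher calls turned, although both counts were within 1.5 times of those reported. Scaling moved the median of all genes by less than 0.1 on the log2 scale. Of 420 counts of called genes in single marker lists under alternatives, 387 stayed within 1.5 times of those reported and 33 did not.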
